A study of Rattus norvegicus with 6 samples.

Results

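Intermediate filaments are the rope-like part of the cytoskeleton, and which filament genes a neural cell uses changes with its type and maturity. The 8 genes described here were taken by symbol from the platform's probe annotation: Gfap, Vim, Nes, Synm, Ina, Nefl, Nefm and Des. Each of the 8 had 1 probe set with values, among 13949 genes measured under a symbol of their own. They were measured on 6 Affymetrix arrays of primary rat oligodendrocyte progenitor cells (OPCs), the precursors of myelin-forming cells, and the labels name no genotype or strain. The cells were isolated on postnatal days 1 to 2 and kept for 2 days in DMEM with N2, B27, antibiotics, NT3 and PDGF, in both groups. The 3 control samples stayed unstimulated, and the 3 others were exposed to fibrinogen, a clotting protein of the blood, for 12 h. The labels state no fibrinogen dose, and nothing in them says that the samples of a group came from separate cultures.

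Subunits of these filaments pair as coiled rods, and most cells mix several of them in 1 polymer. GFAP and vimentin can form filaments by themselves, whereas nestin and synemin join filaments built on vimentin or desmin. In the brain, GFAP marks astrocytes and rises when they react to injury, vimentin and nestin are typical of dividing precursors, and alpha-internexin and the neurofilament subunits belong mainly to neurons. Desmin is the main filament of muscle and of some cells of vessel walls. BMP signaling, which the title of the series links to fibrinogen, is known to turn cultured OPCs toward an astrocyte-like state with GFAP.

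The promoters of Gfap, Vim and Nes are shown because these are the glial members, one of which was higher, one lower and one not called after fibrinogen (values given next). The sequences are RefSeq's for assembly GRCr8, 250 bases up to the annotated start, and capitals mark CpG dinucleotides, the sites of DNA methylation in mammals.
Gfap (GRCr8, chr10:88361662-88361911, minus strand): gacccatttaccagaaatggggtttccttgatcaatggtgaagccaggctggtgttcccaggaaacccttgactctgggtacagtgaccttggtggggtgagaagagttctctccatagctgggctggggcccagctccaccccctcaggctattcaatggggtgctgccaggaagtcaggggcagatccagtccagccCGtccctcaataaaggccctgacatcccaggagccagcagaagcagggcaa
Vim (GRCr8, chr17:81577011-81577260, plus strand): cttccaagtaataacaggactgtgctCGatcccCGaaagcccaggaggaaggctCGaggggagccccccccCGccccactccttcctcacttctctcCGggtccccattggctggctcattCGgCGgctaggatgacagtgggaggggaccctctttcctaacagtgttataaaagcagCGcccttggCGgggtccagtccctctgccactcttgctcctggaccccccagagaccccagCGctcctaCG
Nes (GRCr8, chr2:175736338-175736587, plus strand): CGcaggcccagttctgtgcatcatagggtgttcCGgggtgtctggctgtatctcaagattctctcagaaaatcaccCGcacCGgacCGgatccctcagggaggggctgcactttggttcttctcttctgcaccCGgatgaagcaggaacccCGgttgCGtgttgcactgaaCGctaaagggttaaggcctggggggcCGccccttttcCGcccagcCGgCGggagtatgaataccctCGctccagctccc

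The Gfap stretch held 1 CpG, and 18.1% of the 33469 RefSeq promoters of the same length held as few. Vim and Nes had 11 and 14 CpGs in the same window, and Ina had the most of the 6 members with a sequence in the table, 21. Nefl and Nefm had no entry. Letters were searched on both strands. The TATA box TATAAA was found in Vim only of the 6, starting 82 bases before the start site, and in 12.9% of all promoters. Neither the palindromic STAT motif TTCNNNGAA nor the BMP-response motif GGCGCC occurred in any of the 6 windows, against 7.67% and 8.69% of all promoters. A window of this length leaves out more distant elements, and neither methylation nor binding was measured on these arrays.

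Fibrinogen-treated OPCs had more Gfap mRNA and less Nes mRNA than controls, and the other 6 filament genes did not pass. A gene was called when its Benjamini-Hochberg adjusted p, over all 13949 genes in limma, was under 0.05. By that rule 1 of the 8 filament genes rose and 1 fell. The call for Gfap held in every fit without 1 array, and that for Nes in none. Over all genes the rule called 3.1% in either direction, 1.81% as higher and 1.29% as lower. On 5 of the 8 genes the control and fibrinogen samples did not overlap, Gfap, Vim, Nefl and Nefm being higher and Nes lower. Over all genes 21.3% did not overlap, 10.7% higher and 10.6% lower. The same 4 and 1 genes were those with an unadjusted p under 0.05, which 15.6% of all genes had in either direction and 8.12% as higher. The median log2 change was 0.20 over the 8 genes and -0.0033 over all genes. The 8 genes were chosen with earlier results of these data known, so these counts describe them and test nothing about the group.

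As a measure of background, 955 odorant and vomeronasal receptor genes, which OPCs should not use, centred on a log2 level of 4.03 (median), and their 95th percentile was 5.51. Of the 8 filament genes, 6 had a mean above that percentile, as did 9949 of all 13949 genes, and Synm and Des lay below it. All 12 measured OPC markers lay above it, against 5 of 14 microglia and macrophage markers and 3 of 8 endothelial markers, none of which passed in limma (1 and 0 at an unadjusted p under 0.05). Array fibrinogen 2 stood apart, since its genes lay farther from their group means (SD 0.146) than those of the other 5 arrays (SD 0.0862 to 0.114). The small number of arrays limits every value, and in bulk samples a change in the share of a cell type and a change in RNA per cell cannot be told apart.

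Gfap, the main filament protein of astrocytes, had log2 levels of 8.40, 8.58 and 8.47 in the controls and 9.87, 9.31 and 10.00 in the fibrinogen samples. All 3 fibrinogen values lay above all controls, with a gap of 0.73 between the groups. The mean went from 8.48 ± 0.09 to 9.73 ± 0.37 (SD, n = 3 each). The log2 change was 1.24 ± 0.16 (SE; 95% interval 0.88 to 1.61), a 2.37-fold rise with an adjusted p of 0.00511 in limma. It was number 5 among all 13949 genes by size of rise, but number 96 by p. Fibrinogen 2 had the smallest rise, and the spread of the treated samples was wider than that of the controls. Without fibrinogen 2 the log2 change was 1.45 ± 0.08 (SE), and in fits without any 1 array it stayed between 1.11 and 1.45, with adjusted p-values of 0.00124 to 0.0314.

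Vim encodes vimentin, the filament that GFAP joins in immature and reactive glia. Its log2 levels were 12.03, 11.85 and 11.85 in the controls and 12.07, 12.18 and 12.14 after fibrinogen. The groups were apart by only 0.04, since control 1 came close to fibrinogen 1. The log2 change of 0.22 ± 0.08 (SE; 95% interval 0.04 to 0.40) did not pass (adjusted p = 0.209, limma). It did not pass in fits without 1 array either, where it ran from 0.19 to 0.28.

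Nes encodes nestin, the large filament protein of neural precursors, which needs a partner such as vimentin to assemble. Its log2 levels were 8.55, 8.49 and 8.39 in the controls and 8.07, 8.02 and 8.17 after fibrinogen. Every treated sample was lower than every control, with a gap of 0.22. Nes fell by 0.39 ± 0.08 (SE) on the log2 scale, to 0.763 of the control level (adjusted p = 0.0337, limma). The call depended on having all 6 arrays: the adjusted p was 0.138, 0.141 and 0.0768 when control 1, 2 or 3 was left out, and 0.0985, 0.0583 and 0.0518 when fibrinogen 1, 2 or 3 was. The log2 change itself kept its sign in those fits, between -0.43 and -0.35.

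Synm encodes synemin, another subunit that joins vimentin or desmin filaments and is found in reactive astrocytes. It read 5.44, 5.53 and 5.44 in the controls and 5.56, 5.45 and 5.29 after fibrinogen, on the log2 scale. The groups overlapped, and the log2 change of -0.04 ± 0.09 (SE; 95% interval -0.23 to 0.16) did not pass (adjusted p = 0.895, limma). Without fibrinogen 3 the change had the opposite sign (0.035). With a mean below the receptor percentile, its probe set could miss a difference.

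**Figure D1:**
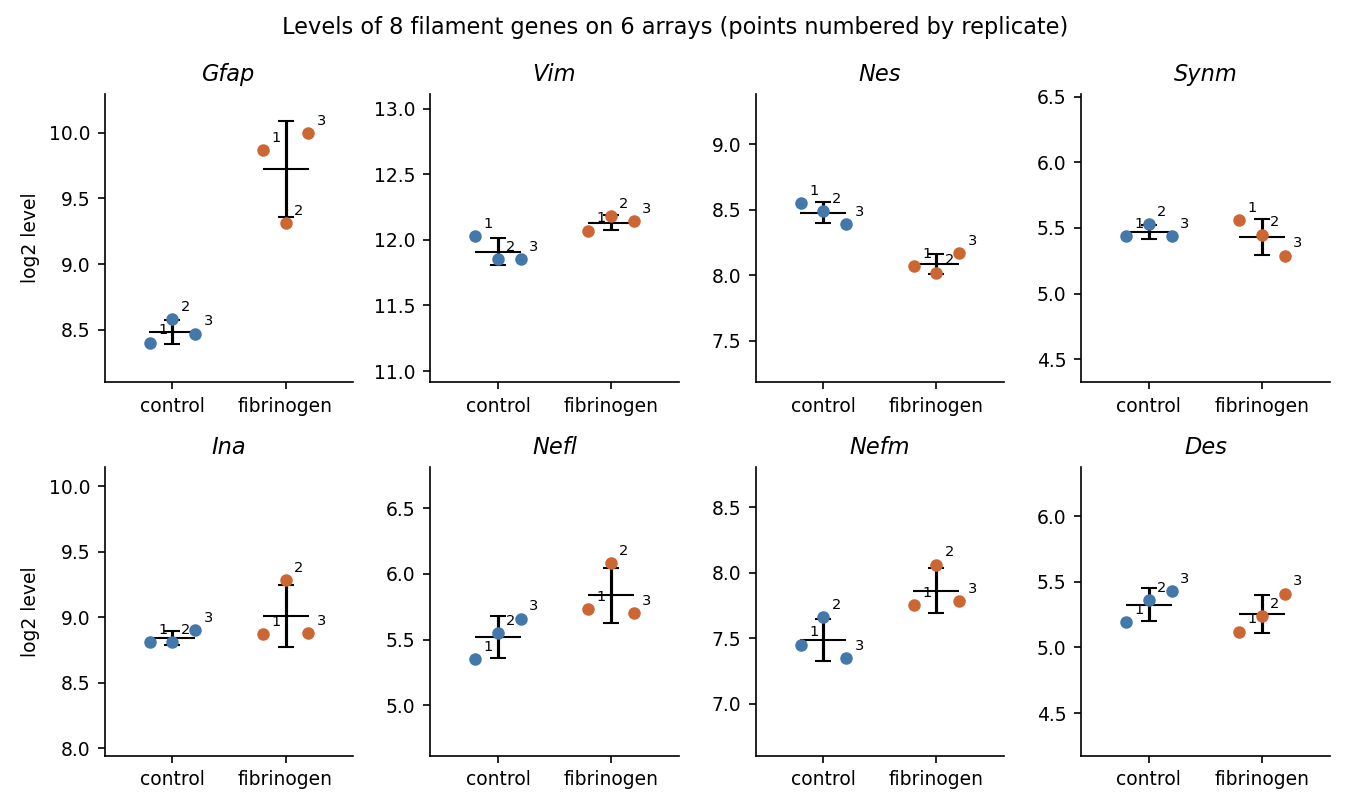
Log2 level of each of the 8 filament genes (y axis, with the same span in every panel) in 3 control and 3 fibrinogen samples. Points are arrays, numbered by replicate, horizontal bars are group means and whiskers are SDs. The Gfap groups are 0.73 apart and the Nes groups 0.22 apart, while Synm, Ina and Des overlap.

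Of the filament genes typical of neurons, Ina, Nefl and Nefm had higher means after fibrinogen, but none of the 3 passed. Ina encodes alpha-internexin, the filament of young neurons. Its log2 levels were 8.81, 8.81 and 8.90 in the controls and 8.87, 9.28 and 8.88 after fibrinogen, so fibrinogen 2 alone stood above the controls. The log2 change was 0.17 ± 0.11 (SE; adjusted p = 0.540, limma), and 0.035 without fibrinogen 2.

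Nefl encodes the light neurofilament subunit, on which the others build. Its log2 levels were 5.35, 5.55 and 5.66 in the controls and 5.73, 6.08 and 5.70 in the fibrinogen samples. The groups did not overlap, although by just 0.04, and the levels lay close to the receptor percentile. Its log2 change of 0.32 ± 0.12 (SE; 95% interval 0.04 to 0.59) did not pass (adjusted p = 0.247, limma), and was 0.20 without fibrinogen 2.

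Nefm encodes the medium neurofilament subunit, which forms the side arms between filaments. It had log2 levels of 7.45, 7.66 and 7.35 in the controls and 7.75, 8.06 and 7.78 after fibrinogen. The groups were 0.09 apart. The log2 change was 0.38 ± 0.11 (SE; 95% interval 0.12 to 0.63), which did not pass (adjusted p = 0.129, limma), and was 0.28 without fibrinogen 2. Among the treated samples fibrinogen 2 was highest for Ina, Nefl and Nefm, by 0.20 to 0.27 above the group mean, and lowest for Gfap, by 0.42 below it.

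The 14 neuron markers measured beside these genes (among them Snap25, Syt1 and Stmn2) had a mean log2 level of 7.26 to 7.28 in the controls and 7.25 to 7.32 in the fibrinogen samples, highest in fibrinogen 2. Single markers differed there. After fibrinogen Syt1 read 7.61, 8.58 and 7.60 and Snap25 7.49, 7.95 and 7.55, highest in fibrinogen 2. Others were lowest in it, such as Stmn2 (8.40, 8.16 and 8.44), Syp and Dcx. None of the 14 rose and 1 fell, Gad2, which makes the transmitter GABA. Gad2 lay below the receptor percentile, as did Gad1, Slc17a6 and Slc17a7, and without control 3 it did not pass (adjusted p = 0.0514, limma). At an unadjusted p under 0.05, 1 of the 14 was higher, Eno2 (0.24 ± 0.08, SE), and 1 lower, Gad2. The part of neuronal RNA in the neurofilament values was not tested.

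Des encodes desmin. Its log2 levels were 5.19, 5.36 and 5.43 in the controls and 5.12, 5.24 and 5.41 after fibrinogen, with overlapping groups. The change of -0.07 ± 0.10 (SE; 95% interval -0.29 to 0.15) did not pass (adjusted p = 0.805, limma), and the mean lay below the receptor percentile. None of 12 measured pericyte, smooth muscle and fibroblast markers passed in limma (at an unadjusted p under 0.05, 1 of them was higher and 1 lower). Their mean log2 level was 5.73 to 5.77 in the controls and 5.67 to 5.80 after fibrinogen, and 7 of the 12 lay above the receptor percentile, while Pdgfrb, Kcnj8, Myh11, Dcn and Abcc9 did not.

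**Figure D2:**
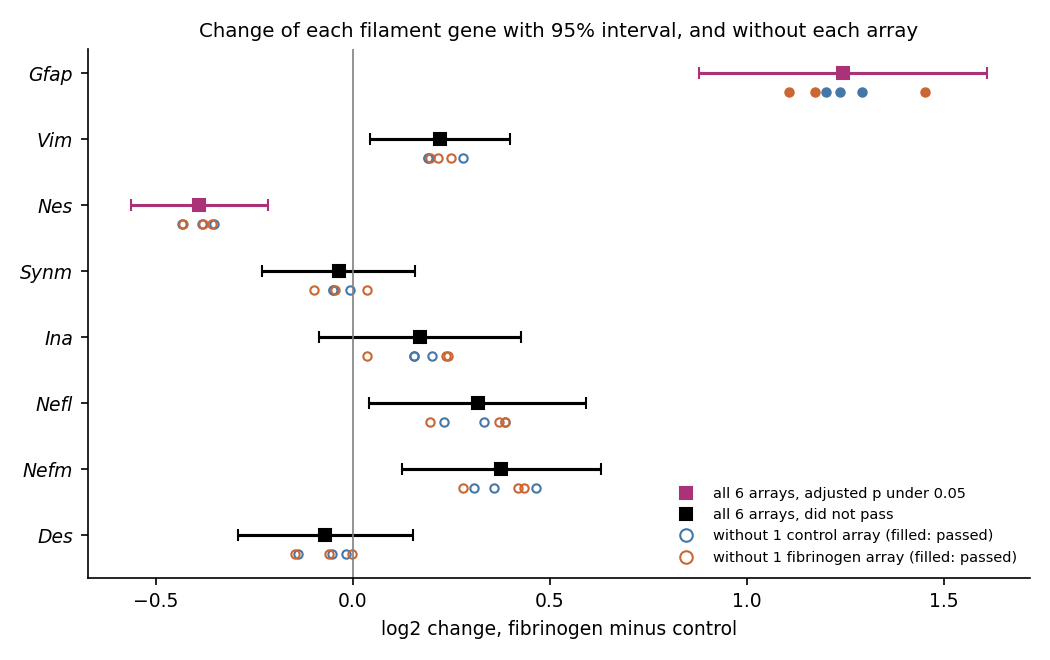
Log2 change, fibrinogen minus control (x axis), of each filament gene. Squares with bars are the values from all 6 arrays with 95% intervals, and circles below them are the values with 1 array left out. Gfap stays between 1.11 and 1.45 without any 1 array, with adjusted p under 0.05 each time, and Nes between -0.43 and -0.35 with none under it.

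Gfap was also set against each other member on the same arrays, as the difference between the log2 changes. The change of Gfap exceeded that of Nefm by 0.87 ± 0.31, Nefl by 0.93 ± 0.34, Vim by 1.02 ± 0.26, Ina by 1.07 ± 0.35, Synm by 1.28 ± 0.25, Des by 1.31 ± 0.21 and Nes by 1.63 ± 0.19 (SE, n = 3 each). In all 7 comparisons the treated samples lay above the controls, and each had a two-sided exact permutation p of 0.1 (0.1 adjusted over the 7). That is the smallest p this test can give with 3 against 3 arrays, so the test does not tell these differences apart by size or settle any of them, and they are given as values with their SEs.

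Astrocytes normally hold the most GFAP. Of 12 measured astrocyte markers other than Gfap, 2 rose and 0 fell in limma, and 10 did not pass. At an unadjusted p under 0.05, 6 were higher and 0 lower. Of the 12 changes 9 were positive and 3 negative. Aqp4, Mlc1, Gja1, Slc4a4 and Cldn10 had log2 changes of 0.01, 0.0067, -0.04, -0.11 and -0.20. Ndrg2, which is abundant in astrocytes, rose by 0.96 ± 0.10 (SE), and Slc1a2, which clears glutamate, by 0.65 ± 0.07, and both calls held without each array. The mean log2 level of the 12 was 7.36 to 7.45 in the controls and 7.59 to 7.66 after fibrinogen. Of the 12, 11 lay above the receptor percentile in these OPC cultures, the exception being the gap junction gene Gjb6. Their part in the rise of Gfap was not tested.

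Beside the fall of Nes, 4 of 12 OPC markers fell and 0 rose. Neu4, a sialidase gene, fell by 0.65 ± 0.09 (SE) and kept its call without each array. The receptor gene Gpr17 fell by 0.66 ± 0.10, a call lost without control 2 or 3 (adjusted p = 0.0690 and 0.0713, limma). Pdgfra, the PDGF receptor, fell by 0.40 ± 0.08, a call lost when any array but fibrinogen 3 was left out, and the proteoglycan gene Cspg4 by 0.35 ± 0.08, a call lost without any 1 array (adjusted p of the lost calls 0.0628 to 0.159 for Pdgfra and 0.0670 to 0.179 for Cspg4). Leaving out 1 array left 1 to 3 falls: 2, 1 and 1 when control 1, 2 or 3 was omitted, and 2, 2 and 3 when fibrinogen 1, 2 or 3 was. C1ql1, a secreted protein gene, went the other way, with groups apart and a log2 change of 0.52 ± 0.14 (SE), but its adjusted p of 0.0923 in limma missed the threshold. With array weights or without fibrinogen 2, 1 OPC marker was called higher. The mean log2 level of the 12 was 9.79 to 9.84 in the controls and 9.62 to 9.73 after fibrinogen. Of 10 oligodendrocyte markers, 1 rose and 2 fell. Ermn, a cytoskeletal gene of oligodendrocytes, rose by 0.91 ± 0.11 (SE) and held without each array. The myelin enzyme gene Cnp fell by 0.48 ± 0.08, a call lost without control 2 or 3 (adjusted p = 0.0736 to 0.0785), and Bcas1 fell by 0.34 ± 0.07, a call lost when any array but fibrinogen 2 was left out (adjusted p = 0.0873 to 0.172, limma).

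Of the other cytoplasmic filament genes, 1 rose, and it encodes a filament of neurons. Of 14 measured, 8 had a mean above the receptor percentile and 1 passed, with a median log2 change of 0.03. Prph, which encodes peripherin, a relative of vimentin found in peripheral neurons, had log2 levels of 6.17, 6.22 and 6.16 in the controls and 6.72, 6.78 and 6.45 after fibrinogen. It rose by 0.47 ± 0.09 (SE; adjusted p = 0.0374, limma), with groups apart. The call ended without any array but fibrinogen 3 (adjusted p = 0.0700 to 0.140). Nefh, the heavy neurofilament subunit, lay below the receptor percentile with a log2 change of -0.08 ± 0.09 (SE).

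The other 7 of that list above the percentile did not pass in limma. Iffo1 had the largest difference of them, -0.30 ± 0.10 (SE), and Sync, which encodes the desmin-binding syncoilin, had 0.14 ± 0.08. The keratin genes Krt8, Krt10, Krt14, Krt15 and Krt80 had log2 changes of 0.10, -0.09, 0.03, 0.09 and 0.06. None of 9 measured genes of the nuclear lamina, whose lamins are the filaments of the nucleus, passed in limma; at an unadjusted p under 0.05, 1 of them was higher and 3 were lower.

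Proteins that bind or protect filaments include small heat shock proteins and plakins. Of 11 measured cross-linker and chaperone genes, 4 rose and 1 fell, with a median log2 change of 0.08. Hspb1, a small heat shock protein that binds GFAP and vimentin filaments, had log2 levels of 8.01, 8.35 and 8.43 in the controls and 10.15, 9.95 and 10.05 after fibrinogen. Its rise of 1.79 ± 0.11 (SE) was larger than that of Gfap. The co-chaperone gene Bag3 rose by 0.86 ± 0.09 and Cryab, whose product binds GFAP filaments, by 0.65 ± 0.08.

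Those 3 calls held without each array. Hspb8, the partner of BAG3, rose by 0.63 ± 0.14 (SE), a call that ended without any array but fibrinogen 3 (adjusted p = 0.102 to 0.178, limma). Without fibrinogen 3 its change was 0.78. The LIM protein gene Fhl1 fell by 0.37 ± 0.07, a call lost when any control or fibrinogen 1 was left out (adjusted p = 0.0870 to 0.127).

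Enzymes that act on filaments control their assembly and cleavage. Of 17 measured kinase, phosphatase and protease genes, 0 rose and 2 fell in limma, with a median log2 change of -0.06. Aurkb, a mitotic kinase that phosphorylates vimentin and GFAP as cells divide, fell by 0.48 ± 0.10 (SE), and Casp6, a protease that cuts filament proteins, by 0.38 ± 0.08. Neither call held throughout: that of Aurkb ended without any 1 array (adjusted p = 0.0501 to 0.114) and that of Casp6 without any but fibrinogen 1 (adjusted p = 0.0754 to 0.173).

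Several regulators of glial filament genes were higher after fibrinogen. The 24 measured genes belong to BMP, LIF and CNTF, Notch and NFI regulation, or encode other transcription and chromatin factors such as Pax6, Sox2 and Dnmt1. Of these 24, 7 rose and 0 fell, with a median log2 change of 0.19. At an unadjusted p under 0.05, 12 were higher and 2 lower, Pax6 (-0.24) and Dnmt1 (-0.26). Id1 and Id3, BMP targets that block neuronal and oligodendrocyte differentiation, rose by 1.25 ± 0.08 and 0.71 ± 0.15 (SE), and the Notch effector Hes1 by 0.94 ± 0.10. The cytokine receptor genes Cntfr and Lifr, which signal to Gfap through STAT3, rose by 0.69 ± 0.07 and 0.55 ± 0.09, and Nfix, of the NFI factors that bind the Gfap promoter, by 0.50 ± 0.08. Stat3 itself had a log2 change of 0.15 ± 0.07 that did not pass (adjusted p = 0.343, limma).

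The calls for Id1, Hes1 and Cntfr held without each array. Those for Lifr ended without control 1, 2 or 3 (adjusted p = 0.0743 to 0.0905, limma), for Nfix without those or fibrinogen 3 (0.0561 to 0.0736) and for Id3 without any array but fibrinogen 2 (0.0759 to 0.113). The number of these regulators that rose was 3 without control 1, 2 or 3, 4 without fibrinogen 3, 6 without fibrinogen 1 and 7 without fibrinogen 2. The title of the series already names BMP signaling, so the direction of its targets is not independent evidence.

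Actin and tubulin form the other parts of the cytoskeleton. Of 25 measured actin and tubulin cytoskeleton genes, 3 rose and 0 fell, with a median log2 change of -0.01. Tagln2 and Actn1, which bundle or cross-link actin, rose by 0.67 ± 0.15 and 0.36 ± 0.07 (SE), and the tropomyosin gene Tpm2 by 0.45 ± 0.09. Tagln2 and Actn1 lost their calls without any array but fibrinogen 2 (adjusted p = 0.0863 to 0.173 and 0.0703 to 0.137), and Tpm2 without any but fibrinogen 3 (0.0529 to 0.141, limma).

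**Figure D3:**
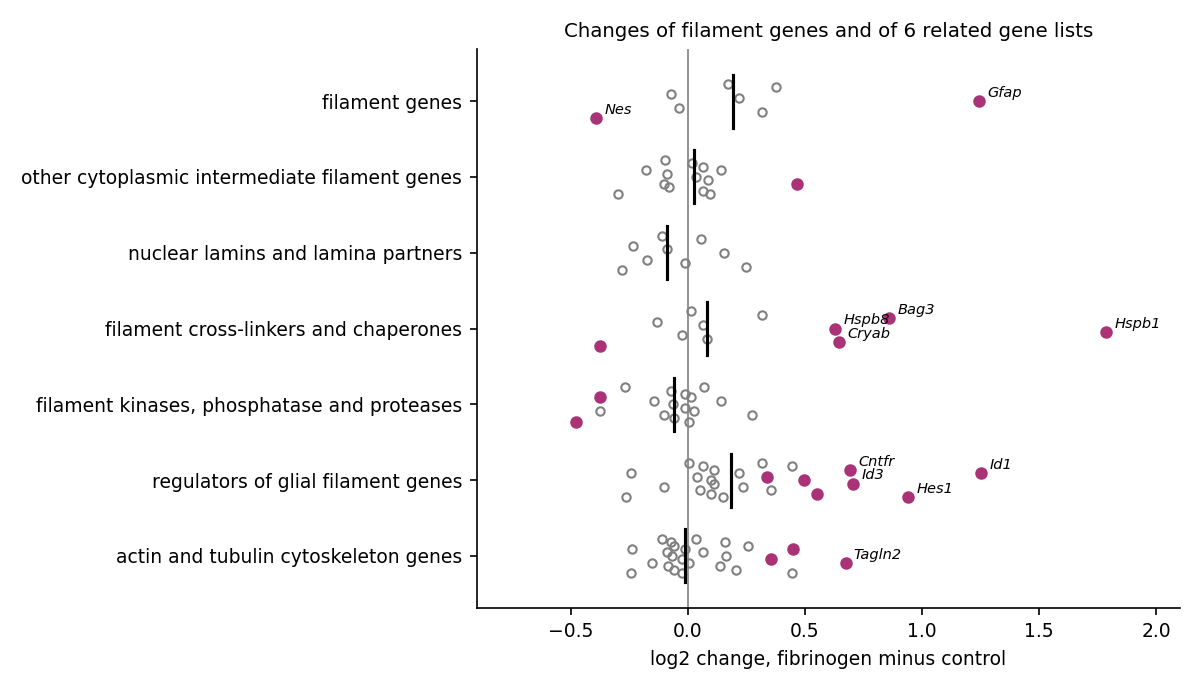
Log2 change, fibrinogen minus control (x axis), of every measured gene in the filament group and 6 related lists (y axis). Filled points passed at an adjusted p under 0.05, open points did not, and vertical bars are medians; height within a row has no meaning. Among the filament genes 1 point on each side is filled, and Hspb1, at 1.79, lies beyond Gfap, at 1.24.

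Over the 6 arrays, the genes whose pattern was most like that of Gfap were Pdpn, Pdlim7, Ncan and Emp1, with Pearson's r of 0.988, 0.980, 0.980 and 0.976. They were taken from 186 genes with a mean above the receptor percentile and an SD at least 0.5 times that of Gfap. Pdpn encodes podoplanin, a membrane protein of reactive astrocytes. It had log2 levels of 8.72, 8.94 and 8.97 in the controls and 9.96, 9.70 and 10.12 after fibrinogen, with fibrinogen 2 lowest of the treated samples as for Gfap. Ncan, which encodes the matrix proteoglycan neurocan, rose by 0.89 ± 0.08 (SE), Emp1, a membrane protein gene, by 0.89 ± 0.10 and Pdlim7, a LIM protein gene of actin bundles, by 0.63 ± 0.12.

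The genes most like Nes came from a larger pool than those for Gfap, which limits a comparison of the 2 sets. Bub1b, Polr2b, Rpa2 and Cenpk had r of 0.997, 0.994, 0.994 and 0.992, from 5090 candidates chosen by the same rule. Bub1b, a spindle checkpoint kinase gene, had log2 levels of 9.30, 9.16 and 9.03 in the controls and 8.65, 8.59 and 8.77 after fibrinogen. Rpa2, whose product coats single-stranded DNA during replication, fell by 0.47 ± 0.07 and Cenpk, a kinetochore gene, by 0.40 ± 0.08 (SE), while Polr2b, an RNA polymerase subunit gene, had a change of -0.22 ± 0.07 that did not pass (adjusted p = 0.144, limma). With 2 groups of 3 arrays, r is set largely by the difference between groups, and the points share the arrays, so these values are descriptions. Both sets were chosen by r over these same arrays. A low fibrinogen 2 shared by Pdpn and Gfap is partly a result of that choice.

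**Figure D4:**
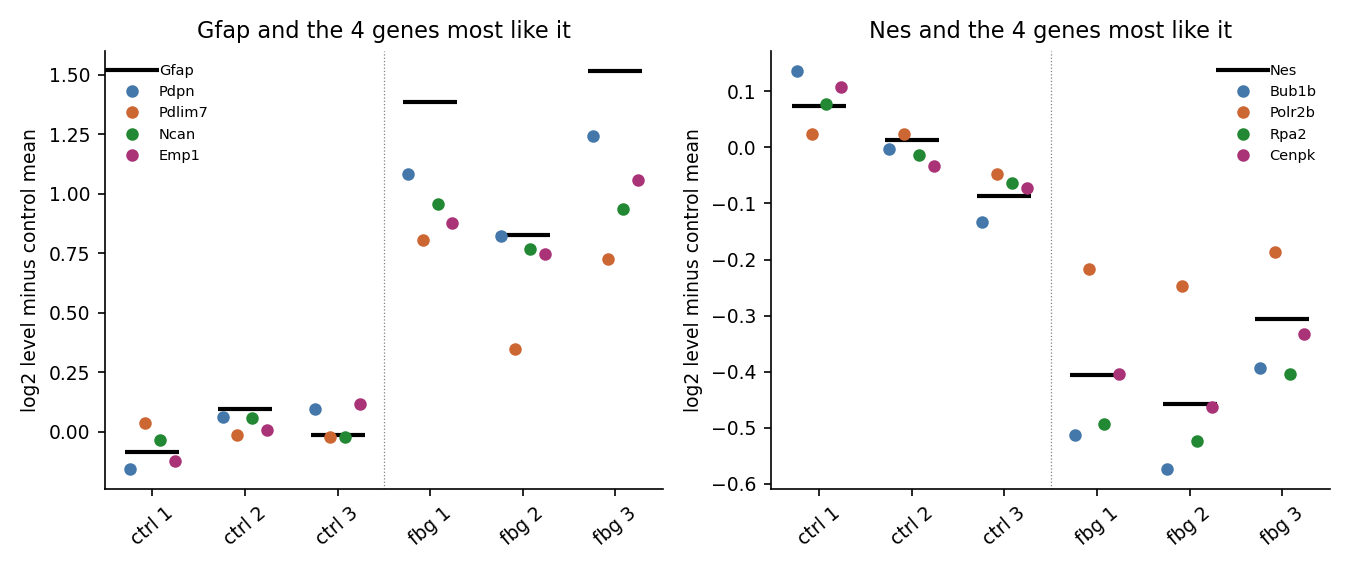
Log2 level minus the control mean (y axis) on each array (x axis; ctrl, control; fbg, fibrinogen) for Gfap or Nes, shown as black bars, and the 4 genes most like each, shown as points. Gfap and its 4 genes are all lowest in fibrinogen 2 among the treated samples, and Nes and its 4 genes are also lowest there. The genes were chosen for likeness over these same arrays, so a shared pattern is partly set by that choice.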

How the data were processed

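The authors deposited 1 level per probe set and array, with 2 decimals. The submitters' processing notes name RMA, a normalization that can compress differences of dim genes, and limma, both without settings. The log2 scale of the deposited levels was inferred from their values. Of 26312 probe sets, 1206 were blank; 14700 others had 1 gene symbol, and the brightest per gene was kept, for 13949 genes.

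Samples were grouped by title and compared with limma 3.58.1 (R 4.3.3; lmFit, eBayes, two-sided, no covariates), adjusted by Benjamini-Hochberg over all genes. SEs are moderated, except for differences between members. The p-values reflect only how far these samples spread, possibly for technical reasons. On any pair of arrays at most 3.63% of values were identical. The procedure was also run on data simulated with independent noise, which cannot show how array or replicate effects bear on these calls. Alternatives were median centring, omission of genes below the receptor percentile, averaged probe sets, a replicate block, a trended robust prior, array weights and each array left out. Named genes were the 8 members, up to 6 called genes per list, listed filament genes above the receptor percentile, and the 4 genes most like Gfap and Nes. Members, lists and this rule were chosen with earlier results of these data known. Nefh, Stat3, Pax6, Dnmt1 and the named cell type markers, C1ql1 among them, were named after their values were seen.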

Additional observations from a re-analysis of the deposited data

How the results depend on the processing

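The rise of Gfap passed under all 12 alternatives, with a log2 change of 1.11 to 1.45. Vim, Ina, Nefl, Nefm, Synm and Des passed under none. The differences between Gfap and the other members kept their sign when any 1 array was left out. These differences were taken from plain group means, so the alternatives that kept all arrays could not change them and do not test their sign. The fall of Nes passed under 5 of the 12. It was lost with the replicate number as a block (-0.39, adjusted p = 0.0738, limma), which left 0 filament genes lower, and in each fit without 1 array (-0.43 to -0.35, with 0 filament genes lower in each). These fits have fewer residual degrees of freedom, and why the call was lost was not tested. Synm ranged from -0.10 to 0.035 without 1 array. Synm and Des were not in the fit without dim genes.

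Over all genes, 252 were higher and 180 lower. Array weights gave 383 and 276, and fits without 1 array gave 96 to 263 and 55 to 173. With the replicate block they were 195 and 120. The labels do not say whether same-numbered arrays were paired. The correlations of their deviations from the group means were 0.0278, 0.0217 and 0.0109, and each of the 6 arrays correlated best with its own number. Arrays of unlike number had correlations of -0.0213 to -0.00158, so all of these values were small. Deviations within a group offset each other, so the 6 matches are not independent and do not settle whether arrays were paired. With the block the SE of Nefm was 0.08, against 0.11 without it, and Nefm still did not pass (adjusted p = 0.0613, limma). For Nes the SE was 0.09 with the block and 0.08 without it. Counts for the gene lists were recomputed under the same alternatives, a step added after seeing the data. Of 28 list genes past the threshold, 10 kept their call without each array. The signal over background limits Synm, Des and Nefl.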
